A study of Mus musculus with 2 samples.

Results

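Fibroblasts of the dura mater, the outer and thickest of the meningeal membranes, were described here in a single-cell RNA-sequencing comparison of Sham-operated and brain-injured mice. The cells were selected on measured values. A cell was kept if it had 150 to 5000 detected genes, at most 20% mitochondrial UMIs (unique molecular identifiers, each standing for 1 captured RNA molecule) and at most 5% hemoglobin UMIs. It was called a fibroblast if at least 3 of the 6 genes Col1a1, Col1a2, Dcn, Col12a1, Mfap4 and Slc47a1 had a UMI and if Ptprc, Cdh5 and Rgs5, which mark leukocytes, endothelium and pericytes, were at 0. A fibroblast was taken as dural if it held at least 1 UMI of Foxc2 or Alpl, had Aldh1a2 and Col18a1 at 0 and had fewer than 3 UMIs of Ptgds. These criteria found 349 dural fibroblasts among 620 gated fibroblasts, 5816 filtered cells and 7048 barcodes.

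The samples were a Sham and a TBI library from the dorsal meninges of male wild-type mice (C57BL/6 in the labels, C57BL/6J in the methods), each a pool of 5 animals, taken 1 week after the procedure. The labels give the age as 10 weeks in one place and as 10 to 12 weeks in another. TBI was a mild, closed-skull hit, and Sham animals were handled alike under anesthesia without being hit. The tissue at the impact site was not part of the preparation, live single cells were sorted before droplet capture with a 3′ chemistry, and the animals of a pool cannot be separated. With 1 library in each group there was no test of the difference between the groups. The intervals given are 95% intervals of counting error only, which does not include the spread between animals, dissections or libraries. The libraries shared 20 barcodes, 14 of them among filtered cells and 0 among dural fibroblasts.

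Dural fibroblasts make the collagen-rich sheet under the skull, and they lie outside the barrier layer of the arachnoid. Foxc2 is a forkhead transcription factor of mesenchyme, and Alpl encodes tissue-nonspecific alkaline phosphatase, an enzyme that also marks bone-forming cells and some vessels. Arachnoid and pial fibroblasts are told apart by retinoic acid synthesis, prostaglandin D synthase and solute carriers. Aldh1a2 and Ptgds, taken as arachnoid markers, and Col18a1, taken as a pial marker, were used to leave them out.

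The Sham library gave 31 dural fibroblasts and the TBI library 318. The Sham cells held 108534 UMIs together, with a median of 2814 UMIs and 1565 genes per cell. The TBI cells held 954873 UMIs, with a median of 2386 UMIs and 1396 genes. Levels are given as CPM, the UMIs of a gene summed over the cells of a group and scaled to a total of 1e6 UMIs, and since 1 UMI stands for 1 transcript end no correction for gene length was made. A count of 3 UMIs corresponds to 27.6 CPM in the Sham cells and to 3.14 CPM in the TBI cells, so low levels were resolved far better in TBI.

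The Sham group was also uneven. Its deepest cell, with 16558 UMIs and 4259 genes, carried 15.3% of all UMIs of the group, whereas the deepest TBI cell carried 1.36%. That Sham cell held 859 of 865 Spp1 UMIs, 119 of 124 Acta2 UMIs, 55 of 56 Postn UMIs and 112 of 125 Timp1 UMIs. Spp1 encodes osteopontin, Acta2 smooth muscle actin, Postn periostin and Timp1 a metalloproteinase inhibitor. The cell met the criteria with 1 UMI each of Foxc2 and Alpl and 4 of the 6 fibroblast genes. The main comparisons of TBI with Sham are therefore also given without it.

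Dural fibroblasts made up 1.52% of filtered Sham cells (31 of 2043, exact binomial interval 1.03 to 2.15%) and 8.43% of filtered TBI cells (318 of 3773, 7.56 to 9.36%). The difference was 6.91 percentage points (5.86 to 7.94), a ratio of 5.55. Gated fibroblasts without any layer marker stood at 1.08% and 4.16% of filtered cells, and those with an arachnoid or pial marker at 0.538% and 2.15%, so all 3 groups of fibroblasts had higher shares in the TBI library. Within the gated fibroblasts, dural cells were 48.4% in Sham (31 of 64, 35.8 to 61.3%) and 57.2% in TBI (318 of 556, 53.0 to 61.3%). That difference of 8.76 points had an interval from -3.92 to 21.2 points, and no difference in the share was detectable at this depth. With 1 pool a group, dissection, sorting and the animals cannot be told apart from the procedure.

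**Figure D1:**
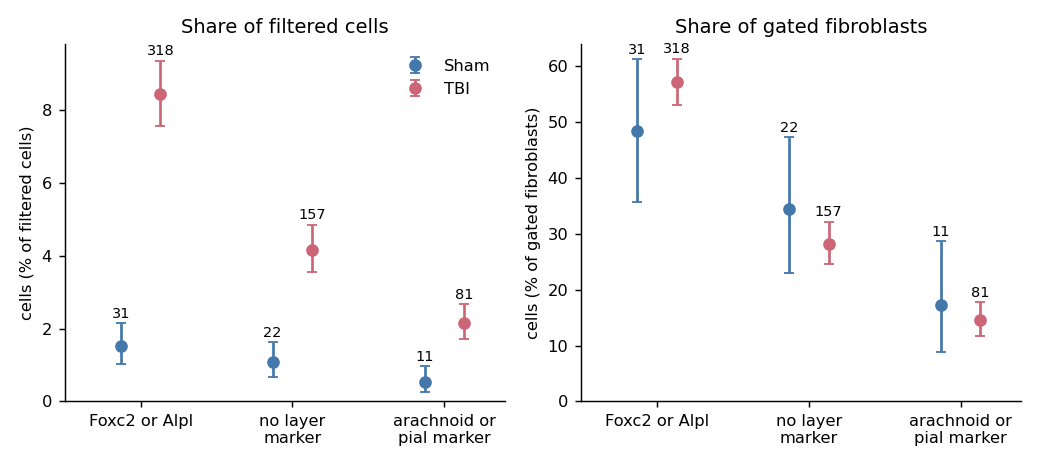
Share of cells (%, vertical axis) in the Sham (blue) and TBI (red) libraries for dural fibroblasts with Foxc2 or Alpl, gated fibroblasts with no layer marker, and those with an arachnoid or pial marker. Points are shares, bars exact 95% binomial intervals and numbers above them cells; shares of filtered cells (left) were higher in TBI in all 3 groups, while the intervals overlapped for shares of gated fibroblasts (right).

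The genes that chose the cells are given as a description. Foxc2 (chromosome 8, 121116171 to 121118895, plus strand, GRCm38) had 29 UMIs in 19 of 31 Sham cells and 383 UMIs in 206 of 318 TBI cells, or 267 and 401 CPM. Alpl (chromosome 4, 137741733 to 137796384, minus strand, GRCm38) had 71 UMIs in 23 Sham cells and 811 UMIs in 238 TBI cells, or 654 and 849 CPM. Alpl was thus the more abundant of the pair in either library. Many cells sat close to the threshold: 9 Sham and 94 TBI cells had just 1 UMI of the pair, 7 and 64 had 2, and 15 and 160 had 3 or more. Just outside it, 2 Sham and 4 TBI cells met every other criterion with 2 fibroblast genes in place of 3.

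Cells with Foxc2 alone, Alpl alone or both numbered 8, 12 and 11 in Sham and 80, 112 and 126 in TBI. The cells with both genes were deeper, with medians of 3638 and 3440 UMIs, against 2908 and 2075 UMIs for Foxc2 alone and 2051 and 1946 UMIs for Alpl alone. When cells were thinned to 1000 UMIs, which 4 Sham and 25 TBI cells did not reach, the expected share with a Foxc2 UMI fell to 23.9% in Sham and 34.4% in TBI, and the expected share with an Alpl UMI to 46.7% and 49.2%. A cell with only one of the genes can thus not be said to lack the other. As a measure of background, 0.289% of Sham and 2.48% of TBI cells with Ptprc, a leukocyte gene, had a Foxc2 UMI. The shares with an Alpl UMI were 1.35% and 4.41%, at medians of 3899 and 4120 UMIs. Free RNA and mixed barcodes were not told apart in these cells. Among them, 0 in Sham and 21 in TBI also met the criteria for the fibroblast genes and for Foxc2 or Alpl. Thinned to 1000 UMIs, the expected shares in those leukocytes were 0.0334% and 0.629% for Foxc2 and 0.455% and 1.67% for Alpl. The shares in dural fibroblasts were set by the selection and are no measure against this background.

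Neither gene was restricted to the selected cells. Of 108 filtered Sham cells with Alpl, 28 passed the fibroblast gate and 46 carried Cdh5, and of 562 such TBI cells, 273 passed the gate and 170 carried Cdh5. Foxc2 was found in 48 filtered Sham cells, 21 of them gated and 20 with Cdh5, and in 417 TBI cells, 243 gated and 110 with Cdh5. Cells with a Cdh5 UMI that also met the criteria for the fibroblast genes and for Foxc2 or Alpl numbered 17 in Sham and 95 in TBI. A further 5 Sham and 53 TBI gated cells carried Foxc2 or Alpl together with an arachnoid or pial marker and were counted with the latter.

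Among the fibroblast genes of the gate, Col1a1 and Col1a2, the chains of type I collagen, had 4736 and 4681 CPM in Sham and 5144 and 4785 CPM in TBI. Dcn, the proteoglycan decorin that binds collagen fibrils, had 2322 and 2241 CPM. Slc47a1, an organic cation exporter, had 1216 CPM in Sham and 1517 CPM in TBI. Mfap4, a microfibril-associated protein, had 1594 and 2590 CPM. A UMI of all 6 genes was found in 9 Sham and 121 TBI cells, and 4 and 35 cells had just 3 of the genes.

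Of the 15 most abundant genes of the dural fibroblasts, 7 were nuclear-encoded matrix, growth-factor-binding or secreted products or transporters: Igfbp5, Mgp, Sparc, Slc38a2, Col1a1, Col1a2 and Cst3. The rest were Malat1, a nuclear RNA, Gm42418, which overlaps ribosomal RNA, and 6 mitochondrially encoded transcripts. Igfbp5, which binds insulin-like growth factors, reached 10568 CPM in Sham and 9004 CPM in TBI. Mgp, the matrix Gla protein that inhibits mineralization, reached 9158 and 9215 CPM, and Sparc, a collagen-binding protein of mineralizing and other connective tissues, 6238 and 5727 CPM. Igfbp5 and Mgp exceeded the type I collagen chains in both libraries, as did Sparc, although 40.8% of its Sham UMIs were in the deepest cell, without which it stood at 4360 CPM beside 4262 CPM of Col1a1 and 4458 CPM of Col1a2.

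Dural identity was examined with 14 markers that the selection did not use. All 14 had a UMI in some cell of at least 1 library, and Mgp, Fxyd5, Fmod and Igfbp6 were the most abundant. Fxyd5, a sodium pump regulator, was detected in 28 of 31 Sham cells and 273 of 318 TBI cells, at 2460 and 3372 CPM. It is not particular to these cells, since 59.9% of Sham and 72.5% of TBI cells with Ptprc and 72.7% and 88.9% of arachnoid or pial cells had a Fxyd5 UMI. Foxc1, the close relative of Foxc2, was detected in 12 and 97 cells, at 184 and 134 CPM. Dpt and Dpep1 had at most 12 UMIs in a library. On the arachnoid and pial side, Slc6a13 and Slc22a6 were at 0 in both libraries, which allows up to 27.6 CPM in Sham and 3.14 CPM in TBI, and Lama1 and Dpp4 had 1 UMI in TBI and 0 in Sham. Gjb6 and Cldn11, a gap junction and a tight junction component listed with the arachnoid, were present at 184 and 166 CPM in Sham and 429 and 420 CPM in TBI.

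Dmp1, Phex, Mepe and Sost, made by osteocytes, were at 0 in both libraries, and Ibsp, bone sialoprotein, had 0 and 1 UMI. Bglap and Bglap2, the osteocalcins of osteoblasts, had 3 and 2 UMIs in 1 Sham cell, and 39 UMIs in 9 and 40 UMIs in 10 TBI cells. Runx2, the regulator of osteoblast commitment, had a UMI in 10 of 31 Sham and 80 of 318 TBI cells at 111 and 99 CPM, and in 6.55% and 6.48% of the leukocytes, and Sp7, which acts after it, in 2 and 39 cells at 18.4 and 50.3 CPM and in 0.289% and 0.483% of the leukocytes. Among cartilage and tendon genes, Comp, which links collagen fibrils, reached 479 and 719 CPM, while Col2a1, the cartilage collagen, was at 0.

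UMIs of transcription factors of skull and meningeal mesenchyme were found in many cells. No share in leukocytes is given for these factors, so the counts of cells are not set against a background. Foxd1 was detected in 23 Sham and 180 TBI cells at 387 and 383 CPM, Foxp2 in 22 and 203 cells at 479 and 524 CPM, and Ebf1 in 20 and 188 cells at 534 and 486 CPM. Zic1 and Zic4, zinc finger factors of the dorsal head, had 221 and 184 CPM in Sham and 262 and 265 CPM in TBI. Msx1, a homeobox factor of cranial mesenchyme, was the only one of 14 tested factors past 2-fold, with 12 UMIs in 8 Sham cells and 234 UMIs in 130 TBI cells. Its log2 ratio was 1.09 (0.32 to 2.12), and without the deepest Sham cell it was 0.97, under 2-fold.

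The TBI and Sham dural fibroblasts were compared over 1829 genes with a mean of at least 100 CPM, the selection genes excluded. A gene was called if its summed level differed at least 2-fold and the counting interval of the ratio left out 1. By this rule 33 genes (1.8%) were higher in TBI and 56 (3.06%) were lower, and the median log2 ratio over all genes tested was -0.05. Leaving out the deepest Sham cell gave 28 higher and 50 lower genes, of which 20 and 20 were shared with the full set. After thinning cells to 1000 UMIs, 11 and 11 of the full set were still called. Without cells holding 3 or more UMIs of markers of other cell types, 3 and 7 were. Since counting error does not include the spread between pools, a call says that these libraries differed.

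Among the genes higher in TBI, Myoc had 14 UMIs in 2 of 31 Sham cells and 668 UMIs in 52 of 318 TBI cells, or 129 and 700 CPM. The gene (chromosome 1, 162639155 to 162649693, GRCm38) encodes myocilin, a secreted glycoprotein known from the trabecular meshwork of the eye. The log2 ratio was 2.39 (1.68 to 3.32), or 2.15 without the deepest cell, and 13 of the 14 Sham UMIs were from 1 cell. Chad, the cartilage matrix protein chondroadherin, had 3 UMIs in 1 Sham cell and 295 UMIs in 17 TBI cells. At 3 UMIs the Sham level was at the floor, and the log2 ratio was 3.26 (1.92 to 5.77), or 3.02 without the deepest cell. Both genes came from small subsets of cells in either library.

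More widely detected genes were higher as well. Dhrs3, a retinaldehyde reductase, had 4 UMIs in 4 Sham cells and 202 UMIs in 104 TBI cells, with a log2 ratio of 2.35 (1.14 to 4.41). Calm3, a calmodulin gene, had 5 UMIs in Sham and 193 in TBI, with a log2 ratio of 2.00 (0.89 to 3.77). Pfn2, an actin-binding profilin, had 12 and 303 UMIs, with a log2 ratio of 1.46 (0.70 to 2.49). These 3 ratios stayed past 2-fold without the deepest Sham cell, at 2.12, 2.05 and 1.23.

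A set of genes listed with the arachnoid and pia was also higher in the TBI dural fibroblasts. Cldn11 had 18 UMIs in 9 Sham cells and 401 in 121 TBI cells (166 and 420 CPM, log2 ratio between 0.66 and 2.11, or 1.06 without the deepest cell), and Gjb6 had 20 UMIs in 12 Sham cells and 410 in 120 TBI cells (log2 ratio 1.19, 0.57 to 1.95). Igfbp2, a binding protein of insulin-like growth factors, had 10 and 236 UMIs, a log2 ratio of 1.36, or 1.12 without that cell. They were 3 of the 6 tested genes of that list of 21, whose summed log2 ratio was 0.64 (0.42 to 0.88), or 0.43 (0.21 to 0.67) without the deepest Sham cell, when Gjb6 was at 0.95. All 6 of those tested genes had a ratio above 1. Igfbp2 turned to -0.04 when each cell was weighted equally, and in the 13 Sham and 85 TBI dural cells with fewer than 3 UMIs of other cell types' markers Igfbp2 stood at -1.08, Calm3 at -0.01 and the arachnoid and pial list at 0.18 (-0.27 to 0.68). G0s2, an inhibitor of fat breakdown, had 29 and 550 UMIs, a log2 ratio of 1.08 (0.57 to 1.70) that was 0.85 without that cell.

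The genes lower in TBI fell into those that 1 Sham cell carried and those that were spread out. Spp1 (chromosome 5, 104435118 to 104441050, GRCm38) was at 7969.9 CPM in Sham and 39.8 CPM in TBI, a log2 ratio of -7.63 that became -0.81 without the deepest Sham cell. Acta2 went from -4.69 to -0.43, Vim from -3.10 to -0.45 and Timp1 from -2.94 to 0.03. S100a6 turned from -1.93 to 1.10 and was then called higher in TBI. For these 5 genes the size of the difference rested on the single Sham cell, and for Timp1 and S100a6 its direction did too.

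Genes found in many Sham cells kept their direction without it. Ctso, a cathepsin, had 18 UMIs in 10 Sham cells and 55 UMIs in 51 TBI cells, with a log2 ratio of -1.55 (-2.32 to -0.67). Lama4, a laminin chain of vessel and perineurial basement membranes, had 17 UMIs in 11 Sham cells and 52 in 43 TBI cells, with a log2 ratio of -1.55 (-2.34 to -0.64). Riok3, an atypical kinase, had 21 and 72 UMIs (-1.38, -2.08 to -0.58), and Sltm, an RNA-binding nuclear protein, 27 and 110 UMIs (-1.13, -1.73 to -0.45). All 4 genes were detected in a larger share of Sham than of TBI cells. Deptor, an inhibitor of mTOR, had 18 and 69 UMIs (-1.23, -1.96 to -0.36), and it stood at 0.15 in the cells with few UMIs of other types. Epas1, the hypoxia-inducible factor HIF-2α, had 21 and 91 UMIs (-1.05, -1.72 to -0.26). Wwtr1, the Hippo pathway coactivator TAZ, had 25 and 110 UMIs (-1.02, -1.64 to -0.31) and fell under 2-fold, at -0.95, without the deepest Sham cell, whereas the other 6 remained past it.

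**Figure D2:**
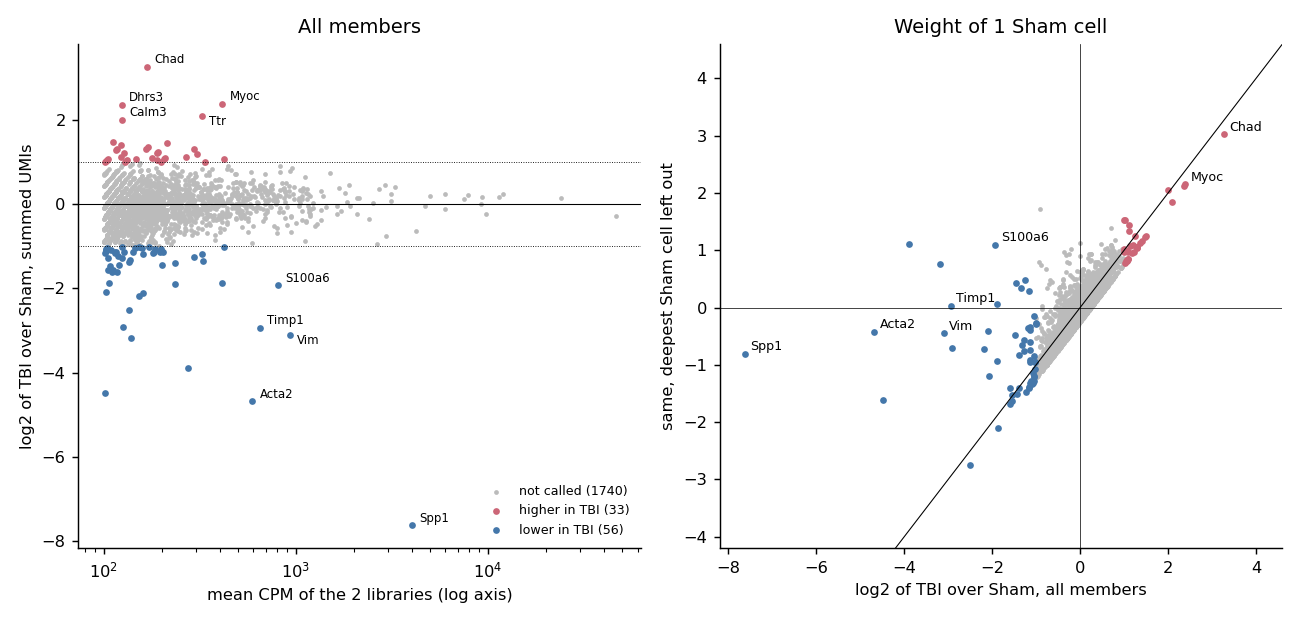
Left, log2 of TBI over Sham summed UMIs in dural fibroblasts (vertical axis) against the mean CPM of both libraries (log axis), with 33 genes higher (red), 56 lower (blue) and the rest not called (grey); dotted lines mark 2-fold. Right, the same log2 ratio with all members (horizontal) and with the deepest Sham cell left out (vertical); Spp1, Acta2, Vim and Timp1 move off the diagonal toward 0 and S100a6 changes sign, while Myoc and Chad stay near the line of equality.

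Gene lists were then compared by the counts of their members and by their summed UMIs. Collagens other than the selection genes had 12 members tested, 0 called higher and 1 lower (Col6a3, of whose 32 Sham UMIs the deepest cell held 25). Their summed log2 ratio was -0.20 (-0.31 to -0.09), and it was 0.08 (-0.04 to 0.22) without that cell. Col3a1 had 1502 CPM in Sham and 1082 CPM in TBI, and Col6a1 1041 and 1021 CPM. Small leucine-rich proteoglycans, which space collagen fibrils, had 0 of 6 tested genes called, with Bgn at 2257 and 1921 CPM and Ogn at 1004 and 1074 CPM. Their summed log2 ratio was -0.07 (-0.19 to 0.05), and 0.29 (0.14 to 0.44) without the deepest Sham cell. Of 26 other matrix and collagen-processing genes tested, 0 were higher and 2, Postn and Eln, lower. Of 16 matrix proteases and inhibitors 1, Timp1, was lower, and of 6 tested bone genes 3, Spp1, Ank and Cthrc1, were lower. Without the deepest cell Postn, Timp1, Spp1, Ank and Cthrc1 were no longer called. Calls were also gained, with 1 gene higher in each of the small proteoglycan, other matrix and protease lists, and 1 protease or inhibitor lower. Eln, elastin, had 27 UMIs in 4 Sham cells and 108 in 58 TBI cells, and 24 of the 27 were in another single Sham cell. The 1.8% and 3.06% of all genes tested are the shares to read these counts against, and for the matrix lists the direction of the sum depended on 1 Sham cell.

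TGF-beta and BMP genes had 0 of 10 called, and Wnt pathway genes had 0 of 7 called. Fstl1, a secreted BMP modulator, had 636 and 797 CPM, Sfrp4, a Wnt antagonist, 1023 and 1244 CPM, and Rspo3, a Wnt enhancer, 691 and 741 CPM. Insulin-like growth factor genes had 1 of 10 tested called higher (Igfbp2), with Igf2 at 442 and 613 CPM and Igf1 at 470 and 407 CPM. Receptors and ligands of other growth factors had 0 of 9 called, among them Gas6, the ligand of TAM receptors, at 958 and 1190 CPM and Mdk, midkine, at 553 and 754 CPM. Cxcl12, the most abundant chemokine, had 359 and 328 CPM, and 0 of 5 tested chemokines and cytokines were called. Of 10 immediate early genes tested, Nr4a1 was higher at 120 and 257 CPM and Nfkbia, an inhibitor of NF-kappaB, lower at 267 and 130 CPM, and without the deepest Sham cell neither was past 2-fold. Sod3, extracellular superoxide dismutase, was the only one of 10 tested metallothionein and antioxidant genes called, lower at 157 and 57.6 CPM, and it stood at -0.49 without that cell. Of 3 tested complement genes 0 were called, and cell cycle genes, with 7 UMIs in Sham and 72 in TBI, were too low to test. For genes near 100 CPM, a 2-fold difference was at the edge of what the few UMIs of the Sham cells resolve.

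Nuclear-encoded genes of oxidative phosphorylation were slightly higher in TBI. Of 57 tested, 40 had a ratio above 1, 2 were called higher (Atp5l and Ndufa7) and 0 lower, and the median log2 ratio was 0.21 against -0.05 over all genes. Their summed level was 12319 CPM in Sham and 14799.9 CPM in TBI, a log2 ratio of 0.26 (0.18 to 0.35), and 0.35 (0.26 to 0.44) without the deepest Sham cell. It turned to -0.25 in the cells with few UMIs of other types, where the median over all genes tested was -0.27. Ribosomal protein genes had 59 of 76 tested genes above 1 and 0 called, with a summed log2 ratio of 0.19 (0.14 to 0.23), or 0.37 without the deepest cell. Mitochondrially encoded transcripts stood at 0.18 (0.15 to 0.22) and turned to -0.05 without that cell. Over the same cells Malat1 went from 5494 UMIs in Sham to 39731 in TBI, a log2 ratio of -0.28, and the median mitochondrial share was 6.04% in Sham and 7.27% in TBI. The part of RNA quality in these shifts was not tested.

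The interferon-induced list had a lower summed level in TBI, with 464 UMIs (4275 CPM) in Sham and 2934 UMIs (3073 CPM) in TBI. Its log2 ratio was -0.48 (-0.62 to -0.33), or -0.46 without the deepest cell. A single Sham cell of 4242 UMIs, which is not the deepest one, had the highest share of interferon-induced UMIs in the group. It held 10 of 18 UMIs of Rnf213, an interferon-induced ubiquitin ligase outside the list, 8 of 11 Isg15 UMIs, 7 of 9 Iigp1 UMIs and 4 of 4 Irf7 UMIs.

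That cell had 133 interferon-induced UMIs, or 314 per 10000 UMIs, against a median of 24.6 in Sham and 22.2 in TBI dural fibroblasts and a highest value of 192 in TBI. With it left out, the list's log2 ratio was -0.05 (-0.21 to 0.12). The lower interferon signal of the TBI cells therefore rested on 1 Sham cell. MHC class I genes, which present antigen and respond to interferon, had 267 UMIs in Sham and 1800 in TBI, a log2 ratio of -0.39 (-0.57 to -0.19), with -0.33 without the deepest cell and -0.25 (-0.44 to -0.04) without the interferon-rich cell. Of 6 tested MHC class I genes 0 were called, with B2m at 617 and 429 CPM and H2-K1 at 479 and 326 CPM.

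**Figure D3:**
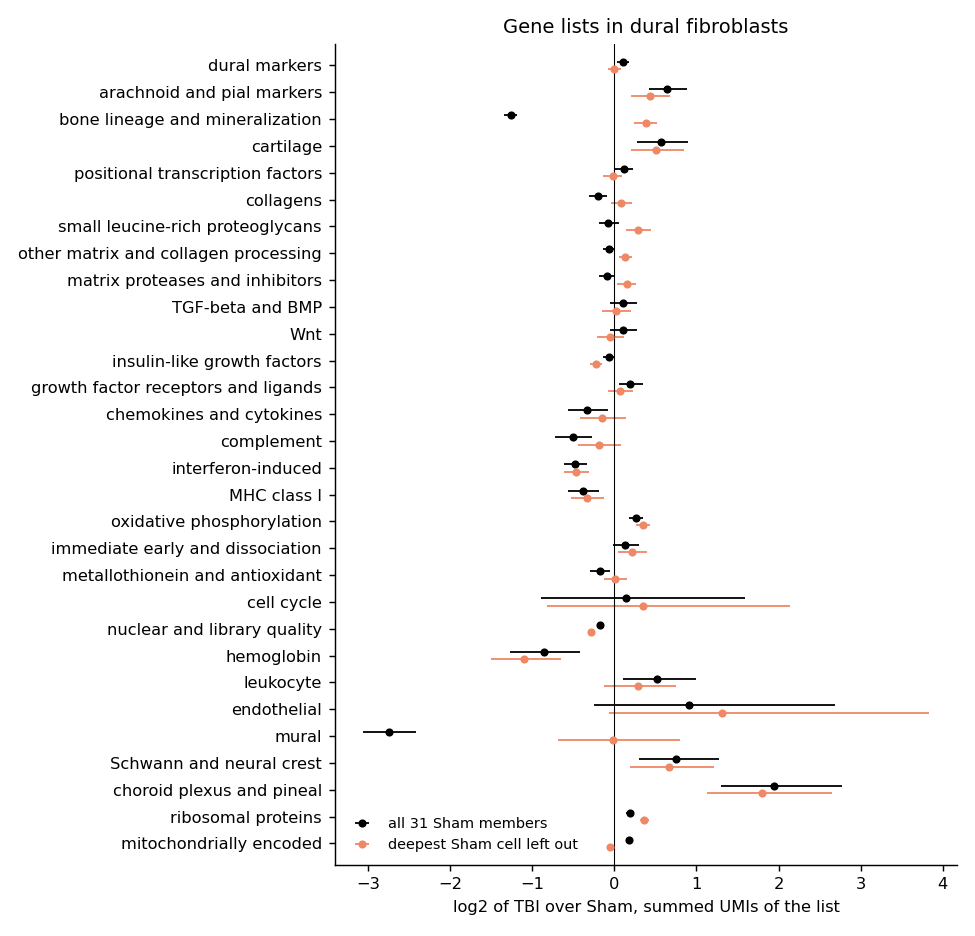
Log2 of TBI over Sham (horizontal axis) for the summed UMIs of each gene list in dural fibroblasts, with all 31 Sham members (black) and with the deepest Sham cell left out (orange); bars are 95% counting intervals. Bone lineage goes from -1.26 to 0.38 and mural genes from -2.75 to -0.02 when that cell is left out, whereas oxidative phosphorylation stays above 0 and interferon-induced genes below it.

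UMIs of other cell types were present at low levels. The 20 leukocyte markers summed to 442 CPM in Sham (15 with a UMI) and 641 CPM in TBI (19 with a UMI), with Cd74, the MHC class II invariant chain, the most abundant at 147 and 203 CPM. Cd3e, Cd79a, Cpa3, Mrc1 and Coro1a were at 0 in Sham and Cd3e also in TBI, while other macrophage and mast cell genes had UMIs, such as C1qa with 2 and 31, Lyz2 with 2 and 46 and Tpsb2 with 2 and 9. The 10 endothelial markers summed to 46.1 and 94.3 CPM, with Eng the most abundant and Pecam1 and Kdr at 0 in Sham. Mural markers summed to 1327 and 198 CPM, 124 of the 144 Sham UMIs being Acta2. Schwann cell markers summed to 359 and 611 CPM, led by Pmp22, with Sox10 at 0 in both.

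Choroid plexus and pineal markers summed to 157 CPM in Sham and 621 CPM in TBI. Ttr, transthyretin, made 13 of 17 Sham UMIs and 504 of 593 TBI UMIs, and 288 of the latter were in 1 TBI cell, while Folr1, Asmt and Aanat were at 0 in both libraries. Hemoglobin transcripts were lower in TBI, at 525 and 291 CPM. At least 3 UMIs of the leukocyte, endothelial, mural, Schwann, choroid plexus or pineal markers were found in 18 of 31 Sham and 233 of 318 TBI cells. Their part in the differences between the libraries was not tested.

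Dural fibroblasts were compared within each library with the 22 Sham and 157 TBI gated fibroblasts that had no layer marker. A gene was called if it differed at least 2-fold in the same direction in both libraries, with no condition on the interval. The marker-free cells were shallower, with medians of 1554 and 1463 UMIs, and a cell with no UMI of Foxc2 or Alpl at such depth cannot be said to lack them. Of 1807 genes tested, 17 (0.941%) were higher and 6 (0.332%) lower in dural cells. Leaving out the deepest Sham cell gave 17 higher and 8 lower genes, 15 and 5 of them shared. These are descriptions, since both groups were cut from the same cells by their counts.

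Some of the higher genes are described singly here, and a shared function was not tested. Ccn3, a matricellular protein, had 30 UMIs in Sham dural cells and 0 in marker-free cells, and 242 and 18 UMIs in TBI, a log2 ratio of 1.93 (1.28 to 2.75) in TBI. F3, tissue factor, the trigger of coagulation, had 37 UMIs against 1 in Sham, and 464 against 162 CPM in TBI. Penk, proenkephalin, had 488 against 139 CPM in Sham and 614 against 241 CPM in TBI, and Ptn, the growth factor pleiotrophin, 378 against 83.2 CPM and 400.1 against 162 CPM. All 4 encode proteins that are secreted or act at the cell surface. In the arachnoid or pial cells Ptn stood at 401 CPM in Sham and 673 CPM in TBI, above the dural cells in both. Penk stood there at 1423 and 317 CPM and Ccn3 at 361 and 206 CPM, above the dural cells in Sham and below them in TBI. Id1, a BMP target, stood at log2 ratios of 1.65 (0.55 to 3.26) in Sham and 1.39 (1.00 to 1.83) in TBI. Mesd, a chaperone of Wnt receptors, stood at 1.48 (0.80 to 2.33) in TBI and Nr4a1, an immediate early nuclear receptor, at 1.33 (0.78 to 1.97), with only 2 and 1 UMIs in the marker-free Sham cells. Egr1, an immediate early factor, had 26 UMIs against 0 in Sham and 202 against 86.2 CPM in TBI. The immediate early and dissociation list to which Nr4a1 and Egr1 belong had summed log2 ratios of dural over marker-free cells of 1.38 (0.95 to 1.87) in Sham and 0.58 (0.46 to 0.70) in TBI, and its part in the comparison was not tested.

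Postn was also higher in either library, with 56 against 0 UMIs in Sham and 33 against 1 in TBI, but 55 of the 56 Sham UMIs were from the deepest cell. Without that cell 1 Sham UMI was left and Postn was no longer called. The lower genes were Apod, Gsn, Lama4, Itga1, Ucp2 and Hbb-bs. Apod, a lipid-binding apolipoprotein of perivascular and arachnoid fibroblasts, had 525 CPM in Sham dural cells against 1469 CPM in marker-free cells, and 568 against 2262 CPM in TBI, log2 ratios of -1.49 (-2.05 to -0.92) and -1.99 (-2.16 to -1.83). Gsn, the actin-severing protein gelsolin, had 571 against 1857 CPM and 1079 against 2309 CPM. The marker-free TBI cells held leukocyte and Schwann markers at higher sums than the dural cells, with log2 ratios of dural over marker-free cells of -3.20 and -2.21, whereas the leukocyte sum in Sham went the other way, at 1.84. Nuclear and library quality genes, among them Malat1, were lower in the dural cells, with log2 ratios of -0.83 in Sham and -0.31 in TBI, and ribosomal protein genes stood at 0.94 and -0.09. The part of those markers and of RNA quality in the comparison was not tested.

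Against the 11 Sham and 81 TBI gated fibroblasts with an arachnoid or pial marker, 17 of 1778 genes (0.956%) were higher in dural cells and 22 (1.24%) lower. Leaving out the deepest Sham cell gave 17 higher and 26 lower genes, 16 and 21 of them shared. Comp had 52 UMIs in Sham dural cells and 0 in arachnoid or pial cells, and 719 against 186 CPM in TBI, where the log2 ratio was 1.94 (1.56 to 2.37). Fmod, the collagen-binding proteoglycan fibromodulin, had 949 against 160 CPM in Sham and 1215 against 497 CPM in TBI. Mylk, myosin light chain kinase, had 433 against 80.1 CPM and 350 against 111 CPM. Thbs1, thrombospondin 1, had 608 against 240 CPM and 769 against 297 CPM, and the secreted factors Adamtsl1, Adamts9 and Crispld2 had TBI log2 ratios of 1.68, 1.51 and 1.60, with 3 or 4 UMIs in the Sham arachnoid or pial cells. Acta2 was called as well, with 119 of its 124 Sham UMIs in the deepest cell, and the call was lost without that cell.

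Of the 22 lower genes, 2 (Apod and Slc13a4) were on the arachnoid and pial list and 2 (Ttr and Enpp2) on the choroid plexus and pineal list. The latter list summed to 157 CPM in Sham dural cells against 30715 CPM in arachnoid or pial cells, and to 621 against 14234 CPM in TBI. Leukocyte markers had log2 ratios of dural over arachnoid or pial cells of -0.19 and -1.97, mitochondrially encoded genes of 0.60 and 0.32 and nuclear and library quality genes of 0.23 and 0.13. The part of these lists in the comparison was not tested. Enpp2, autotaxin, which makes lysophosphatidic acid, had 27.6 CPM in Sham dural cells against 2645 CPM in arachnoid or pial cells, and 55.5 against 1411 CPM in TBI, a log2 ratio of -4.66 (-5.11 to -4.25). Vtn, vitronectin, had 55.3 against 942 CPM and 42.9 against 1059 CPM. Mt3, a metallothionein, had 1 against 61 UMIs in Sham and 11 against 62 UMIs in TBI. Apod and Dbi were lower too, with log2 ratios of -3.40 and -2.34 in Sham and -2.31 and -2.33 in TBI. Ttr had log2 ratios of -7.80 and -4.59, at 120 against 27749.9 CPM in Sham and 528 against 12699 CPM in TBI.

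The summed level of the other dural markers in dural cells over marker-free fibroblasts had a log2 ratio of 0.53 (0.37 to 0.69) in Sham and 0.33 (0.28 to 0.39) in TBI. Over arachnoid or pial cells it was -0.01 (-0.14 to 0.12) and -0.15 (-0.19 to -0.10), and Mgp alone stood at 9158 against 9637 CPM in Sham and 9215 against 11839.6 CPM in TBI. Of the 10 tested markers of the list Fmod was higher and Pi16 lower in dural cells. Oxidative phosphorylation genes were lower in dural than in arachnoid or pial cells in both libraries, with log2 ratios of -1.42 (-1.53 to -1.32) and -0.49 (-0.53 to -0.45), and 2 of 66 were called lower. The summed list of further dural markers was thus not higher in the cells chosen on Foxc2 or Alpl than in the arachnoid or pial cells, of which 5 of 11 in Sham and 53 of 81 in TBI carried Foxc2 or Alpl themselves.

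**Figure D4:**
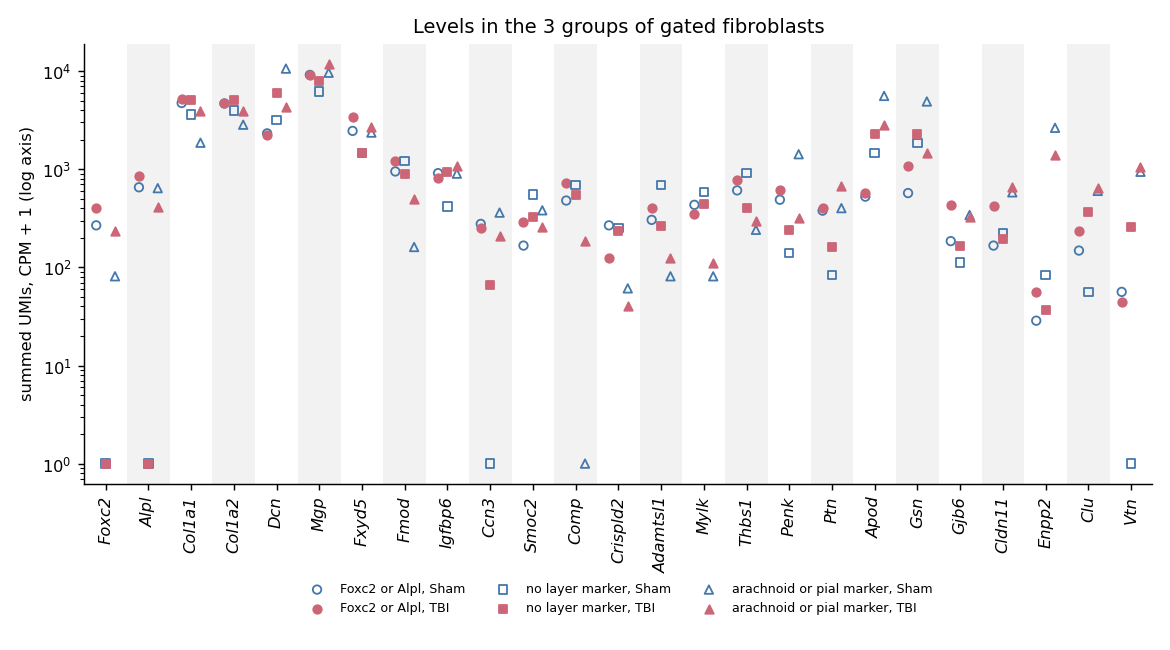
Level of 25 genes (CPM plus 1, log axis) in dural fibroblasts (circles), gated fibroblasts with no layer marker (squares) and those with an arachnoid or pial marker (triangles), Sham open and TBI filled. Foxc2 and Alpl are 0 in the marker-free cells by selection; Apod and Gsn are lowest in dural fibroblasts, while Fmod and Comp are lowest and Enpp2 highest in the arachnoid or pial cells.

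As a description of the selected cells by the layer gene captured in them, cells with only Foxc2 were set against cells with only Alpl, 8 against 12 in Sham and 80 against 112 in TBI. Of 1700 genes tested, 10 (0.588%) were higher and 7 (0.412%) lower in the Foxc2 cells in both libraries by 2-fold or more, and of these Apod, Dut, Gpx3 and Tnmd had counting intervals that left out 0 in Sham. Apod was higher, with 779 against 187 CPM in Sham and 1132 against 342 CPM in TBI, log2 ratios of 1.99 and 1.72. The arachnoid and pial list to which Apod belongs stood at 0.59 (-0.06 to 1.24) in Sham and 1.01 (0.82 to 1.21) in TBI, the dural marker list at -1.17 and -0.10, immediate early and dissociation genes at -0.82 and -0.33, mitochondrially encoded genes at 0.52 and -0.06 and nuclear and library quality genes at 0.28 and 0.21. Their part in these differences was not tested. St3gal4, a sialyltransferase, had 6 against 3 UMIs in Sham and 23 against 12 UMIs in TBI. The other higher genes had at most 6 UMIs in the Sham Foxc2 cells, among them Dut, Emc2, Kat6b and Cluap1, and were at the limit of what those 8 cells resolve.

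Gpx3, a secreted glutathione peroxidase, was lower in the Foxc2 cells, with 4 against 86 UMIs in Sham and 186 against 751 UMIs in TBI. Its log2 ratios were -3.71 (-5.78 to -2.46) and -1.55 (-1.79 to -1.32), and cells with both genes were at 2115 CPM in TBI, between 993 CPM in Foxc2 cells and 2917 CPM in Alpl cells, but at 3660 CPM in Sham, above the 2681 CPM of the Alpl cells. Tnmd, tenomodulin, a tendon and ligament glycoprotein, had 1 against 11 UMIs and 12 against 53 UMIs, with log2 ratios of -2.38 (-8.33 to -0.12) and -1.64 (-2.72 to -0.76). Matn4, a matrilin, had 183 against 530 CPM in Sham and 240 against 521 CPM in TBI. Angpt2, an antagonist of the Tie2 receptor, had 1 against 4 UMIs and 13 against 49 UMIs. The immediate early genes Nr4a2 and Dusp1 had TBI log2 ratios of -1.31 and -1.20, with Sham ratios resting on 1 UMI in the Foxc2 cells.

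**Figure D5:**
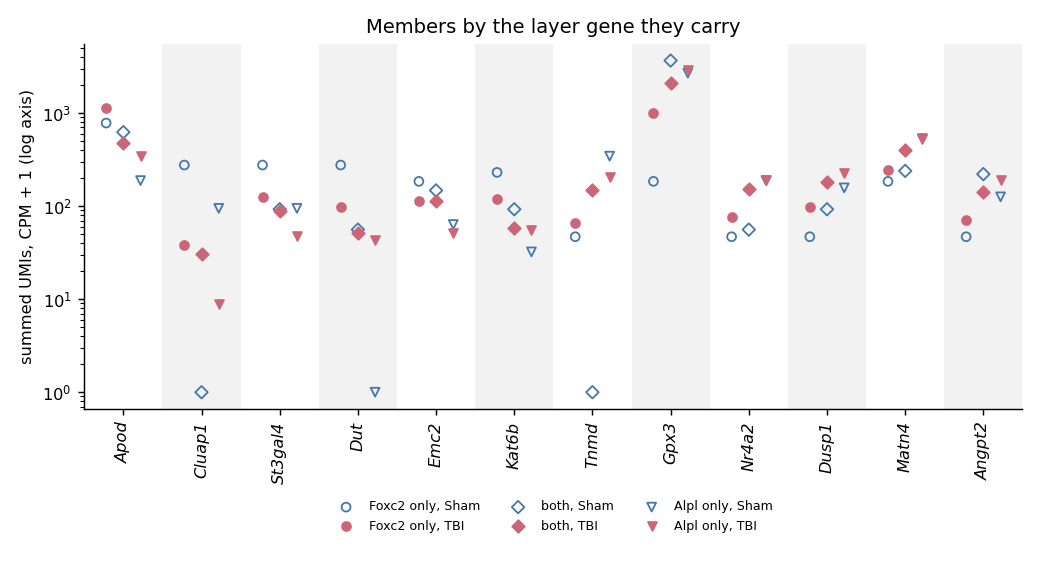
Level of the 12 named genes (CPM plus 1, log axis) in dural fibroblasts with only Foxc2 (circles), both genes (diamonds) or only Alpl (triangles), Sham open and TBI filled. Apod is highest in the cells with only Foxc2 and Gpx3 lowest there; points at 1 are genes with no UMI.

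Variation from cell to cell was described in the 293 TBI and 27 Sham dural fibroblasts with at least 1000 UMIs, thinned to that number, by the Fano factor (variance over mean, which is 1 for counting noise alone). Its median was 1.21 over 884 genes with at least 50 thinned UMIs in TBI, and the genes named were ranked by this value, with no test. Apart from Malat1, Gm42418, Ttr and mitochondrial transcripts, the highest values in TBI were those of Chad (15.6), Igfbp5 (12.7), Sparc (11.2), Myoc (10.5), Mgp (9.14), Gpx3 (8.86), Gsn (8.46) and Cst3 (8.15). Chad had 94.6% of its thinned TBI UMIs in 10 of the 293 cells and Myoc 74.7%. Lum (58.9%), Apod (51.6%), Comp (47.5%) and Penk (45.5%) were also concentrated, whereas Igfbp5 was detected in 264 of the cells and Mgp in 250. The thinned TBI UMIs of Chad, Myoc, Lum and Apod thus lay mostly in 10 cells for each gene, as did those of Ttr (60.9%). Whether such cells form sets was not tested, and the 27 Sham cells were too few to compare.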

How the data were processed

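The deposited files hold UMI counts per gene and barcode for 1 Sham and 1 TBI library, which the authors made by alignment and cell calling with Cell Ranger (3.1.0 per the file headers, 2.1.1 in the submitters' processing notes, and another version in the methods). The annotation release they counted against was not given in the sources used. Coordinates are from GENCODE vM21 (GRCm38), in which 32158 of 32285 gene IDs were found. The members and gene lists were chosen with earlier results of these data known.

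UMIs were summed over the cells of each group (Python 3.11.15, numpy 2.4.6, scipy 1.17.1). Ratios used sums plus a pseudocount of 0.5, divided by all UMIs of the group, and their 95% intervals are exact binomial intervals of counting error. Genes needed a mean of 100 CPM. In the comparisons between fibroblast groups a gene also needed more than 3 UMIs on at least 1 side in each library, a condition added after the values were seen. Intervals of differences between shares are Newcombe intervals. No doublet caller was run, and clusters were not made. The scripts were tested on simulated counts.

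Named genes were the selection genes, members of 28 lists, the 15 most abundant genes, and in TBI against Sham the 8 called genes in each direction with intervals farthest from 0 and at most 25% of UMIs in 1 cell of the higher library. Between fibroblast groups they were the 8, and between Foxc2 and Alpl cells the 6, with the largest smaller ratio of the libraries. S100a6, Vim, Rnf213 and the genes of the Fano ranking were chosen after their values were seen. Some genes that these rules name are not reported here.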

Additional observations from a re-analysis of the deposited data

How the results depend on the processing

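The higher share of dural fibroblasts among filtered TBI cells kept its direction under every alternative run. The difference was 4.86 points when 2 or more UMIs of Foxc2 and Alpl were required. It was 1.62 points when members with 3 or more UMIs of other types' markers were left out, with all filtered cells kept in the denominator. Under the latter, which kept 13 Sham and 85 TBI members, the difference in the share among gated fibroblasts was -5.02 points. Its denominators still held all 64 Sham and 556 TBI gated fibroblasts, of which 34 and 395 had 3 or more such UMIs. That alternative therefore does not give the share among gated fibroblasts with few such UMIs. Of the 89 genes called between TBI and Sham (33 higher, 56 lower), only 3 and 7 were among the 138 called under that alternative, and 11 and 11 among the 123 called after thinning to 1000 UMIs. The count was 220 at a mean of 50 CPM, 425 with no filter, and 57 when the members were joined with gated cells carrying Foxc2 or Alpl and an arachnoid or pial marker. Of 30 lists, 21 had an interval that left out 0, against 10 after thinning to 1000 UMIs and 11 without cells holding other types' UMIs. Both of these moved the median log2 ratio of all genes to -0.27, which bears on every list. The 23 genes that set dural cells apart from marker-free cells became 51 at 50 CPM, and the 39 against arachnoid or pial cells became 75 at 50 CPM and 70 without cells holding other types' UMIs. The 17 genes between Foxc2 and Alpl cells became 7 after thinning, 44 without those cells and 42 at 50 CPM.

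Over 9 alternatives, 20 of 30 lists changed sign at least once, 13 of the 21 whose interval left out 0 and 7 others. This count includes lists that turned below 0 under the alternatives that moved the median of all genes to -0.27. Of the 13, those that turned without cells holding other types' UMIs were bone (1.10), positional factors (-0.095), collagens (0.64), growth factors (-0.042), chemokines (0.086), complement (1.24), oxidative phosphorylation (-0.25), metallothioneins (0.53), leukocyte (-0.23), Schwann (-0.15), ribosomal (-0.11) and mitochondrial genes (-0.069), with, among intervals that held 0, small proteoglycans (0.19), other matrix (0.42), proteases (0.64), Wnt (-0.017), insulin-like growth factors (0.027) and immediate early genes (-0.14), and the genes Calm3 (-0.0087), Igfbp2 (-1.08) and Deptor (0.15). Leaving out the deepest Sham cell turned dural markers (-0.0014), bone (0.38), positional factors (-0.021), collagens (0.084), metallothioneins (0.0088) and mitochondrial genes (-0.053), and, among lists whose interval held 0, small proteoglycans (0.29), other matrix (0.13), proteases (0.15) and Wnt (-0.052). Weighting cells equally turned dural markers (-0.093), collagens (0.078), growth factors (-0.018) and Igfbp2 (-0.041), and, with intervals that held 0, small proteoglycans (0.16), other matrix (0.13), proteases (0.079) and Wnt (-0.067). Thinning turned chemokines (0.0023), mitochondrial genes (-0.036) and Wnt (-0.087). The cause was not tested. Leaving out the deepest cell, leaving out the cell richest in interferon-induced UMIs, and joining cells were chosen after the data were seen. No paired analysis was possible because each group had 1 library. The 31 Sham cells, and 1 pool of animals a group, limit every comparison of TBI with Sham.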
